A study of Homo sapiens with 12 samples.

Results

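The 9 genes followed here belong to the transforming growth factor beta (TGF-beta) and bone morphogenetic protein (BMP) pathway and were measured in KP4 cells, a human pancreatic ductal carcinoma line. They were chosen by name, as 9 of the 36601 genes of the table: the ligand genes TGFB1, TGFB2 and INHBA, the inhibitors BAMBI, SMAD6 and SMAD7, and the target genes ID1, ID2 and ID3. All 9 passed the filter on low values, a mean of at least 10 normalized counts. The wild-type cells were treated for 24 h with DMSO (vehicle), with 10 mM metformin (Met), an inhibitor of complex I of the respiratory chain, with 5 nM FK866 (FK), an inhibitor of the NAD salvage enzyme NAMPT, or with both drugs (Met+FK). In the paper metformin lowered the NAD+/NADH ratio and slightly raised total NAD at 24 h, while FK866 lowered both. The design asks what each drug and their combination change. Total RNA was depleted of ribosomal RNA and sequenced in 3 libraries per treatment, 12 in all, which held between 30667735 and 41052203 read pairs on genes (median 34767231). A normalized count is a number of read pairs divided by the size factor of its library.

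TGF-beta, activin and BMP ligands are secreted dimers that bring together type I and type II receptor kinases at the cell surface. TGF-beta and activin receptors phosphorylate SMAD2 and SMAD3, and BMP receptors phosphorylate SMAD1, SMAD5 and SMAD9. These then enter the nucleus, classically with SMAD4. SMAD6 and SMAD7 are induced by the pathway and block it inside the cell, and BAMBI is a receptor-like protein without a kinase domain that blocks it at the membrane. The ID proteins bind basic helix-loop-helix (bHLH) factors and keep them off DNA, and their genes are the best-known targets of BMP signalling. In pancreatic cancer the pathway is known for the frequent loss of SMAD4 and for its part in the change from an epithelial to a mesenchymal state.

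The labelled cell type was checked against marker genes. Of 8 epithelial and ductal markers, 7 had a mean of at least 10, and KRT18 lay between 9398 and 18721 in every library. KRT8 (2217 to 3222), SOX9 (3405 to 5140) and KRT7 (209 to 314) were lower than KRT18. MUC1 (66.1 to 157), CDH1 (24.2 to 86.5) and KRT19 (14.6 to 75.0) were lower still. The exception was EPCAM, at 3.78 to 12.5. Of 5 mesenchymal markers, 4 had a mean of at least 10. VIM lay between 93661 and 121917, CDH2 between 2818 and 3499, ZEB1 between 544 and 1272 and FN1 between 298 and 455. SNAI2 was at 0 in every library. Both kinds of marker were present. The summed markers of acinar cells reached at most 1.65, and those of islet cells at most 0.944. Those of leukocytes summed to between 915 and 1243, from CD68 (721 to 1010) and PTPRC (101 to 304), while CD3E, a T cell marker, reached at most 1.01. Those of fibroblasts summed to between 79.4 and 315, mostly COL1A1, with DCN at 0 in every library, and those of endothelial cells to between 21.9 and 56.3. Their part in the results was not tested. Bulk RNA was measured, so fewer expressing cells and less RNA per cell cannot be told apart.

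The promoters of the 3 members with the largest differences between treatments are shown first, because the text returns to them. The sequences are RefSeq windows (GRCh38.p14) of the 250 bases before the start site, written 5′ to 3′ on the strand of the gene. ID3 lies on the minus strand (chr1:23559502-23559751), SMAD6 on the plus strand (chr15:66701986-66702235) and INHBA on the minus strand (chr7:41703091-41703340). Capitals mark the SMAD-binding letters CAGAC, searched on both strands, and the palindrome GTCTAGAC, which was added to the search after the promoters had been read.
ID3: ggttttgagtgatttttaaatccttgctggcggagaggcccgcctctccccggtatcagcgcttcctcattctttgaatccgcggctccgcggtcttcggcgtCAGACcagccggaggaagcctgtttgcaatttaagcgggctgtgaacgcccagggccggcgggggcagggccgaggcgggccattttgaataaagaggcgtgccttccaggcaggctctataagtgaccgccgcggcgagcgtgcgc
SMAD6: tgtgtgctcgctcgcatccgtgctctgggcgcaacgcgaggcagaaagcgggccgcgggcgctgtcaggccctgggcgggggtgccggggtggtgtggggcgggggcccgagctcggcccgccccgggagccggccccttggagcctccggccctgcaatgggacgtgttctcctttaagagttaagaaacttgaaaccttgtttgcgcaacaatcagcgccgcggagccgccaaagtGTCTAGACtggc
INHBA: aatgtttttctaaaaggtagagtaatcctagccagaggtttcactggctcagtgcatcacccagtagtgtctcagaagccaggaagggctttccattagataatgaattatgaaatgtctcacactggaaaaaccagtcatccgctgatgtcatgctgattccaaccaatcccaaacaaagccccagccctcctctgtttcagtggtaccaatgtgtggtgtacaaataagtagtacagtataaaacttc
In ID3 the letters CAGAC began 147 bases before the start site. In SMAD6 the palindrome began 12 bases before it. The INHBA stretch held neither. With 50 bases after the start site added, CAGAC occurred in at least 1 window of 5 of the 9 members and in 45.3% of 35116 promoter windows. The palindrome occurred in 0.202% of windows and in SMAD6 alone among the members. The BMP-SMAD element GGCGCC, on either strand, occurred in BAMBI alone among the members and in 19.2% of windows. These matches are letters in a window and were not tested for binding.

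The 9 genes differed widely in level. Per kilobase of exon, TGFB1 had the highest mean in DMSO, 1678 normalized counts per kb, followed by ID3 with 496, ID1 with 418 and SMAD7 with 234. ID2 had 73.2 and SMAD6 72.4 per kb, INHBA 18.5, TGFB2 11.1 and BAMBI 7.07. ID2 and SMAD6 stood next to each other in this order and did not differ beyond their spread.

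**Figure D1:**
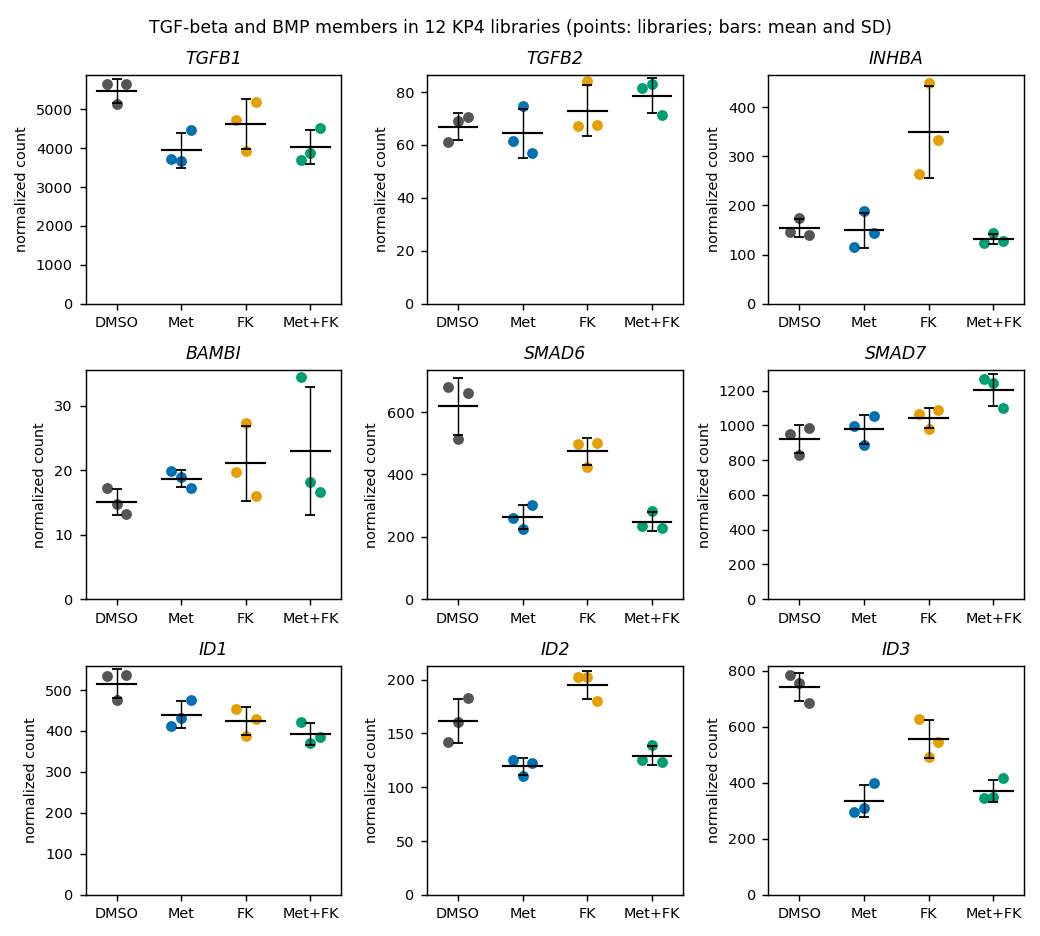
Normalized counts (y axis, from 0) of the 9 genes in DMSO, Met, FK and Met+FK (x axis). Points are the 3 libraries of each treatment, the long bar is their mean and the error bar the SD. SMAD6 and ID3 were lower in all Met and Met+FK libraries than in any DMSO or FK library, and INHBA was higher in all FK libraries than in any other.

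Of the 9 members, 3 stood out across the comparisons. SMAD6 and ID3 were lower than in DMSO with metformin, alone or combined with FK866. INHBA rose with FK866 alone, and with both drugs its libraries overlapped with those of DMSO. A differentially expressed gene (DEG) was one that changed by more than 1.5-fold with an adjusted p under 0.05, in limma-trend over 15376 genes with Benjamini-Hochberg adjustment. In Met against DMSO, 2 of the 9 were lower DEGs and 0 higher, against 10.2% lower and 12.8% higher of all genes tested. No member that was higher had an unadjusted p under 0.05, where 8799 of the 15376 genes had one in either direction. edgeR and DESeq2 on the recovered read pairs called the same numbers of members. In FK against DMSO, 1 member was a higher DEG and 0 were lower, against 2.73% and 0.754% of all genes. For the lower direction, 4 members had an unadjusted p under 0.05, and edgeR and DESeq2 called 0. Of all 15376 genes, 6488 had an unadjusted p under 0.05 in either direction.

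Of the 3 ligand genes among the members, INHBA had the largest response (ENSG00000122641, chromosome 7, 41667167 to 41705834 in hg38). It encodes the beta A subunit, which pairs with itself to form activin A. Its normalized counts were 147, 174 and 139 in DMSO replicates 1 to 3, and 264, 449 and 334 in the FK replicates. The FK libraries lay above all others, and FK replicate 2 was the highest. The increase was 2.23-fold (log2 fold change 1.15, SE 0.19, limma-trend adjusted p = 0.00482). Leaving out any 1 of the 6 libraries kept the call, with log2 fold changes between 0.96 (without FK replicate 2) and 1.34 (without FK replicate 1).

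In Met INHBA did not pass the test. The Met libraries held 116, 188 and 143, a range that spans the DMSO libraries (log2 fold change -0.06, SE 0.19, limma-trend adjusted p = 0.807). With both drugs INHBA stood at 123, 144 and 128, below all FK libraries and overlapping with DMSO. Met+FK against FK gave a decrease of 2.58-fold (log2 fold change -1.37, SE 0.19, limma-trend adjusted p = 4.95e-05). Met+FK against DMSO stood at -0.21 (limma-trend adjusted p = 0.368). With a smooth trend of the values on GC content and transcript length removed from every library, INHBA was at -0.35 in Met against DMSO (limma-trend adjusted p = 0.0794, and 0.0473 with a replicate block as well). Under the same removal Met+FK against DMSO gave -0.44 (limma-trend adjusted p = 0.0279, and 0.0145 with the block).

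The interaction asks whether the effect of FK866 differed with and without metformin. For INHBA it was -1.31 on the log2 scale (SE 0.27, limma-trend adjusted p = 0.085), so the difference in effect missed the threshold. By a limit of 0.1 on the correlations of same-numbered libraries, the replicate numbers paired DMSO with FK and Met with Met+FK. DMSO with Met missed that limit in replicate 1 alone. The block, 1 effect per replicate number, was shared by all treatments, which is wider than that pairing. With the block the limma-trend adjusted p of the interaction was 0.00221. Of all genes, 0.052% passed in the lower direction without the block and 16.5% with it.

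INHBA also had the lowest GC content of the members, 39.1% against a median of 48.5% over the genes tested. With the same GC and length trend taken out, the number of DEGs in FK against DMSO went from 536 to 195. INHBA remained a DEG, with a log2 fold change of 0.81 (limma-trend adjusted p = 0.0109).

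**Figure D2:**
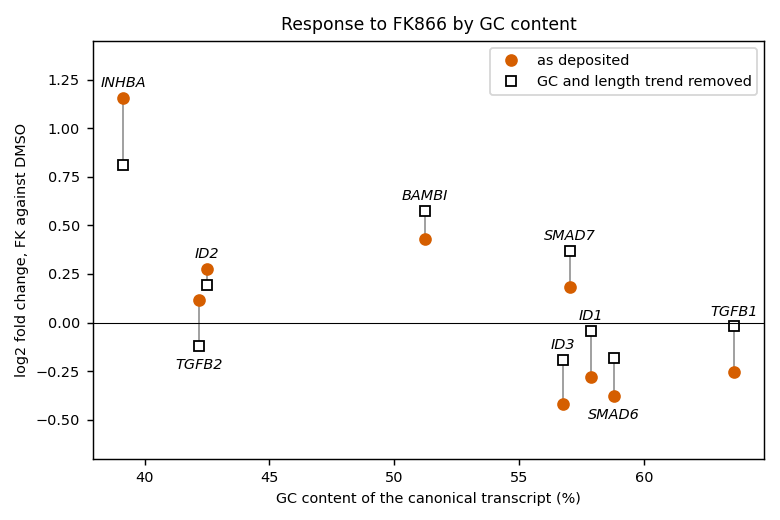
Log2 fold change of FK against DMSO (y axis) and GC content of the canonical transcript in percent (x axis) for the 9 genes. Filled circles are the values as deposited and open squares those after removing the GC and length trend. INHBA went from 1.15 to 0.81, ID3 from -0.42 to -0.19 and TGFB2 from 0.12 to -0.12.

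TGFB1 (ENSG00000105329, chromosome 19, 41301586 to 41353922) encodes the most widely expressed TGF-beta ligand and was the most abundant member. Its normalized counts were 5648, 5127 and 5658 in DMSO and 3714, 3662 and 4469 in Met. All Met libraries lay below all DMSO libraries, and the decrease was 1.39-fold (log2 fold change -0.48, SE 0.11, limma-trend adjusted p = 0.00221), past the p threshold but short of the fold threshold of a DEG. With both drugs it stood at 3702, 3865 and 4529, also below all DMSO libraries (log2 fold change -0.45, SE 0.11, limma-trend adjusted p = 0.00332). The FK libraries, at 4729, 3928 and 5190, overlapped with those of DMSO (log2 fold change -0.26, SE 0.11, limma-trend adjusted p = 0.0948). With the replicate number as a block the adjusted p for FK was 0.00811, and with the GC and length trend removed the log2 fold change was -0.02. TGFB1 overlaps HNRNPUL1 on the opposite strand, which had a mean of 15397 normalized counts. The strand setting of the counting is not given in the sources used here, so reads of the neighbour cannot be told apart from those of TGFB1.

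TGFB2 (ENSG00000092969, chromosome 1, 218345335 to 218444619), another ligand of the TGF-beta receptors, was expressed at a much lower level. Its group means were 66.9 ± 5.04 in DMSO, 64.4 ± 9.22 in Met, 72.9 ± 9.63 in FK and 78.6 ± 6.49 in Met+FK (SD, n = 3 each). The Met+FK libraries lay above all DMSO libraries, but none of the 5 comparisons between treatments passed the test. The log2 fold change of Met+FK against DMSO was 0.23 (95% confidence interval -0.11 to 0.57).

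Among the 3 inhibitors of the 9 members, SMAD6 (ENSG00000137834, chromosome 15, 66702235 to 66782849) had the largest response. It is the inhibitory SMAD that acts mainly on the BMP branch. The 3 DMSO libraries held 681, 514 and 662 normalized counts, and the Met libraries 260, 227 and 302. The Met libraries did not overlap with those of DMSO, a decrease of 2.35-fold (log2 fold change -1.23, SE 0.14, limma-trend adjusted p = 5.82e-06). The FK libraries, at 498, 425 and 500.5, also lay below all DMSO libraries, but the decrease missed the threshold (log2 fold change -0.38, SE 0.14, limma-trend adjusted p = 0.0608). It was 0.0224 with the replicate number as a block. Removing the GC and length trend gave a log2 fold change of -0.18 (limma-trend adjusted p = 0.327). The Met+FK libraries held 234, 283 and 227, in the range of metformin alone. Met+FK against DMSO gave a decrease of 2.48-fold (limma-trend adjusted p = 2.31e-06), and Met+FK against FK one of 1.91-fold (limma-trend adjusted p = 7.9e-05). The SMAD6 start site is the one with the palindrome just before it in the sequence above.

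SMAD7 (ENSG00000101665, chromosome 18, 48919852 to 48952052), the inhibitory SMAD that acts on both branches, was not lower in any treatment by its means. Its normalized counts were 952, 831 and 982 in DMSO and 996, 885 and 1051 in Met, ranges that overlap (log2 fold change 0.08, SE 0.10, limma-trend adjusted p = 0.479). In FK the log2 fold change was 0.18 (limma-trend adjusted p = 0.159). After removal of the GC and length trend SMAD7 stood at 0.25 in Met (limma-trend adjusted p = 0.00943) and 0.37 in FK (0.012), past the p threshold and short of the fold threshold. With both drugs it stood at 1267, 1245 and 1100, above every other library. Against DMSO this was an increase of 1.31-fold (log2 fold change 0.39, SE 0.10, limma-trend adjusted p = 0.00358), short of the fold threshold. Against Met the log2 fold change was 0.30 (SE 0.10), with an unadjusted p under 0.05 and a limma-trend adjusted p of 0.473.

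BAMBI (ENSG00000095739, chromosome 10, 28677509 to 28682932) was near the limit of the filter, with 237 read pairs over the 12 libraries. Its group means were 15.1 ± 2.03 in DMSO, 18.7 ± 1.32 in Met, 21.1 ± 5.79 in FK and 23.1 ± 9.93 in Met+FK (SD, n = 3 each). The last rested on Met+FK replicate 1, which held 34.5 where the other libraries of that treatment held 18.1 and 16.6. No comparison passed, and the interval of Met+FK against DMSO ran from -0.11 to 1.13 on the log2 scale.

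**Figure D3:**
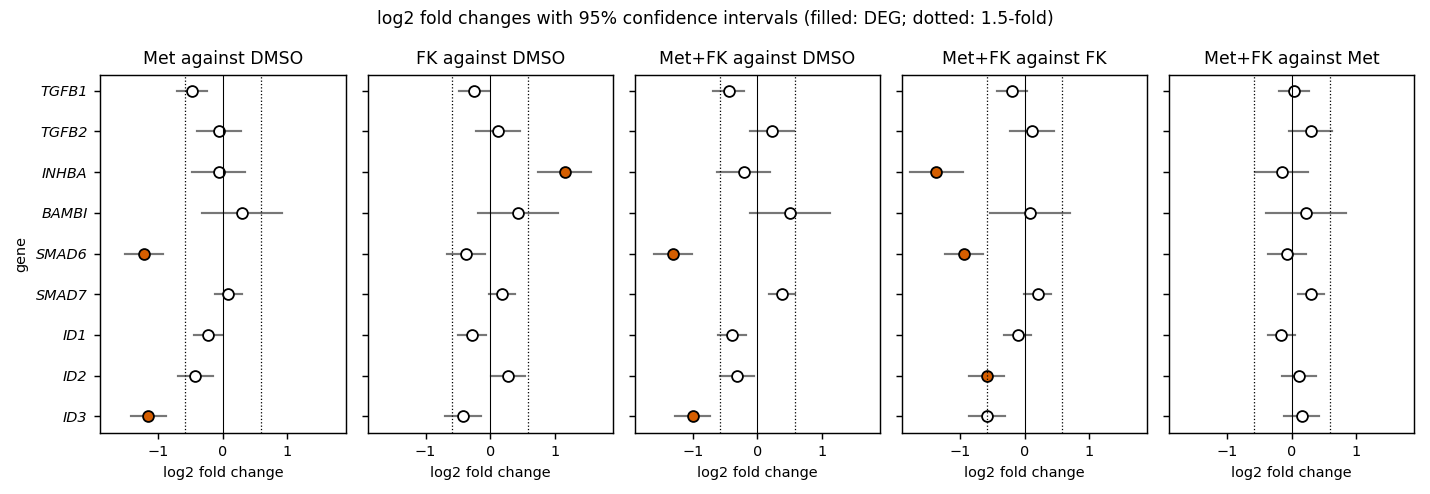
Log2 fold changes (x axis) of the 9 genes (y axis) in the 5 comparisons between treatments, with 95% confidence intervals. Filled circles are DEGs and dotted lines mark a 1.5-fold change. SMAD6 and ID3 lay near -1.2 in Met against DMSO, INHBA at 1.15 in FK against DMSO, and no member was a DEG in Met+FK against Met.

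Among the targets, the 3 genes of the ID family differed in the size of their changes by their values. ID3 (ENSG00000117318, chromosome 1, 23557925 to 23559501) had the largest decrease. It had 784, 756 and 685 normalized counts in DMSO and 297, 308 and 399 in Met. The groups were well apart, a decrease of 2.23-fold (log2 fold change -1.16, SE 0.13, limma-trend adjusted p = 5.13e-06). FK866 alone gave 629, 492 and 546, below all DMSO and above all Met libraries, with a log2 fold change of -0.42 (SE 0.13, limma-trend adjusted p = 0.0371). That passes the p threshold and not the fold threshold, and with the GC and length trend removed the log2 fold change was -0.19 (limma-trend adjusted p = 0.157). Leaving out 1 library at a time, it stayed below 0.05 in 1 of 6 cases, without FK replicate 1 (0.0173), and otherwise ran up to 0.157 without FK replicate 2. With both drugs ID3 stood at 347, 348 and 416, overlapping with Met alone. Met+FK against DMSO was 2.01-fold lower (SE 0.13 on the log2 scale, limma-trend adjusted p = 1.46e-05). The ID3 promoter above is the one with CAGAC well upstream of the start site.

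The interaction of ID3 was 0.57 on the log2 scale (SE 0.18, limma-trend adjusted p = 0.11), the effect of FK866 being 0.15 in the presence of metformin and -0.42 in its absence. With the replicate number as a block its adjusted p was 0.0184, where 15.5% of all genes passed in the higher direction. Removing the GC and length trend as well brought the interaction to 0.33 (limma-trend adjusted p = 0.127).

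ID1 (ENSG00000125968, chromosome 20, 31605282 to 31606515), the founding member of the family, had smaller differences. Its normalized counts were 534, 475 and 537 in DMSO, 412, 431 and 476 in Met, 454, 387 and 430.5 in FK, and 421, 371 and 385 in Met+FK. The highest Met library reached just into the DMSO range, while the FK and Met+FK libraries lay below it. The decrease passed the p threshold in Met+FK (log2 fold change -0.39, SE 0.10, limma-trend adjusted p = 0.00431). Metformin alone gave -0.23 (limma-trend adjusted p = 0.0677) and FK866 alone -0.28 (limma-trend adjusted p = 0.0553, and 0.0149 with the replicate block). Without the GC and length trend the values were -0.03 in Met (limma-trend adjusted p = 0.687), -0.04 in FK (0.723) and -0.22 in Met+FK (0.00832). The 3 effects were not tested against each other apart from the interaction, 0.12 (SE 0.14, limma-trend adjusted p = 0.564).

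ID2 (ENSG00000115738, chromosome 2, 8678844 to 8684461) was lower in Met, and its values in FK leaned the other way without passing the test. It had 142, 161 and 183 normalized counts in DMSO and 125, 111 and 123 in Met, where the groups did not overlap (log2 fold change -0.43, SE 0.13, limma-trend adjusted p = 0.0104). The FK libraries, at 203, 203 and 180, overlapped with DMSO at the upper end (log2 fold change 0.27, SE 0.13, limma-trend adjusted p = 0.111). With both drugs it held 125, 139 and 124, below all DMSO and all FK libraries (log2 fold change against DMSO -0.31, limma-trend adjusted p = 0.0474). That p was under 0.05 in 1 of 6 cases with 1 library left out, without DMSO replicate 1 (0.0249), and otherwise ran up to 0.201 without DMSO replicate 3. It was 0.062 with edgeR, 0.0894 with DESeq2 and 0.139 with libraries scaled to the same total, which also gave 0.055 for Met. The antisense gene ID2-AS1 overlaps ID2 and had a mean of 40.3 normalized counts.

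In Met+FK against FK, the comparison that adds metformin to FK866, 3 of the 9 members were lower DEGs and 0 higher, against 9.29% and 9.27% of all genes. These were INHBA, SMAD6 and ID2. ID2 lay just inside the fold threshold, 1.503-fold lower (limma-trend adjusted p = 0.0016), and ID3 just outside it, 1.498-fold lower (limma-trend adjusted p = 0.002). Both were past the p threshold when any 1 library was left out, but each crossed the fold threshold with some. ID2 lost the call without FK replicate 1, FK replicate 2, Met+FK replicate 1 or Met+FK replicate 3 (log2 fold changes of -0.56, -0.56, -0.57 and -0.56). ID3 gained it without FK replicate 2, FK replicate 3 or Met+FK replicate 3 (-0.67, -0.59 and -0.67). edgeR called 2 members and DESeq2 4.

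In Met+FK against DMSO, 2 members were lower DEGs, SMAD6 and ID3, and 0 higher, against 11.3% and 13.7% of all genes. Of the members 1, SMAD7, was higher at an unadjusted p under 0.05, and edgeR and DESeq2 called 0 in that direction. Of all 15376 genes, 8874 had an unadjusted p under 0.05 in either direction. In Met+FK against Met, the comparison that adds FK866 to metformin, 0 of 9 members were DEGs in either direction, against 0.052% higher and 0.0065% lower of all genes. At an unadjusted p under 0.05 the count was 1 higher (SMAD7) and 0 lower, beside 1051 of 15376 genes in either direction, and edgeR and DESeq2 called 0 members. In the interaction 0 members passed without the block. At an unadjusted p under 0.05, 1 (ID3) was higher and 1 (INHBA) lower, beside 4695 of 15376 genes in either direction. edgeR called 0 members in the interaction and DESeq2 1, INHBA (log2 value -1.37, adjusted p = 0.00193).

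With the adjusted p alone and no fold threshold, limma-trend called 0 members higher and 4 lower in Met against DMSO (TGFB1, SMAD6, ID2 and ID3), against 24.9% and 25.9% of all genes. In FK against DMSO it called 1 higher and 1 lower, INHBA and ID3, against 11.3% and 9.84%. Under the replicate block 4 were lower in FK (TGFB1, SMAD6, ID1 and ID3), against 21.3% of all genes. After removal of the GC and length trend 0 were lower and 2 higher (INHBA and SMAD7), against 3.44% and 4.21%. In Met+FK against DMSO SMAD7 was higher and 5 members lower, the same 4 as in Met and ID1, against 26.1% in each direction. Where metformin was added to FK866, 4 were lower (INHBA, SMAD6, ID2 and ID3) and 0 higher, against 21.7% and 20.5%, and in Met+FK against Met 0 were called, against 0.0911% higher and 0.0065% lower.

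Across the 12 libraries, the genes with the pattern most like a member were sought among those with a mean of at least 100, by Pearson r of log2(normalized count + 1). The libraries fall into 4 treatments, so these values describe shared differences between treatments. For ID3 they were GOT2 (r = 0.995) and KIF22 (0.993). For SMAD6 they were C11orf95 (0.986) and WDR82 (0.986), and for TGFB1 MED24 (0.986) and FBXL18 (0.985). INHBA was most like PGM2L1 (0.958) and CMTM6 (0.951). ID2 was most like NUP205 (0.957) and the collagen gene COL1A1 (0.952), and ID1 like TRAIP (0.948) and HOXC9 (0.944). SMAD7 was most like PRAG1 (0.923) and RBM33 (0.910), BAMBI like ANKRD10 (0.917) and MEF2C (0.865), and TGFB2 like GPHN (0.866) and C3orf67 (0.847).

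The members were then set beside 104 genes of the pathway in 9 lists by role, members included, of which 79 could be tested. In Met against DMSO, 11 of the 79 were higher DEGs and 12 lower, against 12.8% and 10.2% of all genes. In FK against DMSO the counts were 5 and 1, against 2.73% and 0.754%. In Met+FK against DMSO they were 11 and 11, against 13.7% and 11.3%, and in Met+FK against FK 6 and 15, against 9.27% and 9.29%. In Met+FK against Met there were 0 in either direction, against 0.052% and 0.0065%. The counts by role that follow are to be read against the same shares. A gene can be in more than 1 list, as SKIL and SMAD6 are, so these counts share genes. Over the 79 genes the median log2 fold change of Met against DMSO was 0.04, beside 0.01 over all genes.

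**Figure D4:**
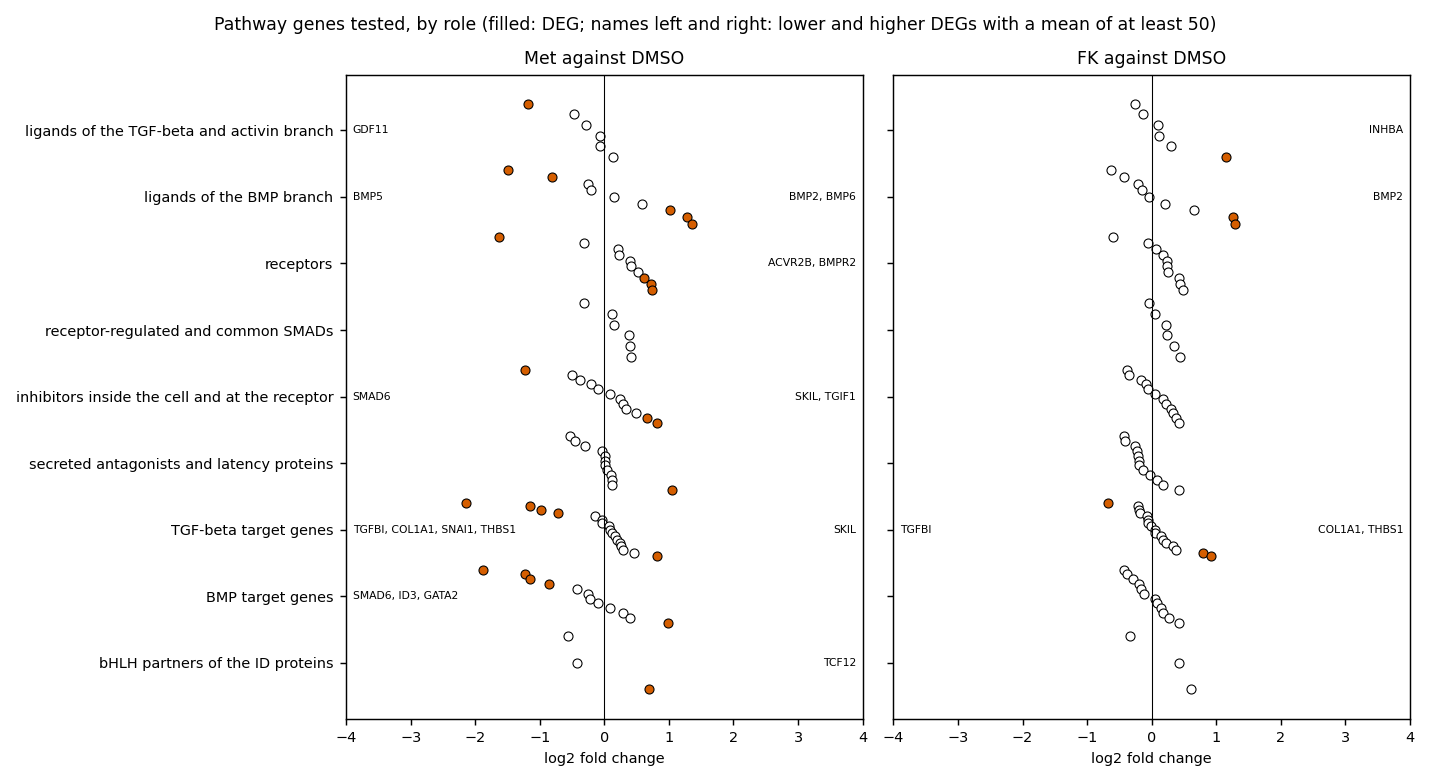
Log2 fold changes (x axis) of the pathway genes tested, by role (y axis), in Met against DMSO (left) and FK against DMSO (right). Filled circles are DEGs, and those with a mean of at least 50 are named at the left edge where lower and at the right edge where higher. TGFBI had the lowest value in Met, -2.14, and INHBA and BMP2 were among the highest in FK.

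Among 6 tested ligand genes of the TGF-beta and activin branch, INHBA was the only DEG in FK against DMSO and GDF11 in Met against DMSO. GDF11, a ligand close to myostatin, had 1489.9, 1263 and 1412 normalized counts in DMSO and 618, 581 and 629 in Met, a log2 fold change of -1.18 (SE 0.08, limma-trend adjusted p = 9.03e-08). TGFB3 was lower in Met+FK against FK (log2 fold change -0.59, limma-trend adjusted p = 0.000612). It lay at the fold threshold and fell short of it without FK replicate 3 (-0.53), Met+FK replicate 2 (-0.58) or Met+FK replicate 3 (-0.58), and with libraries scaled to the same total (-0.53). The median of the list in Met against DMSO was -0.18.

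The BMP ligand genes moved both ways. Of 9 tested, 3 were higher and 2 lower DEGs in Met against DMSO, with a median of 0.15, and 2 were higher and 0 lower in FK. BMP2, a classical inducer of ID genes, had 46.2, 42.4 and 50.1 normalized counts in DMSO, 115, 143 and 104 in Met, 102, 133 and 102 in FK, and 230, 209 and 190 in Met+FK. Every treated library lay above all DMSO libraries, and the Met+FK libraries above all others. The log2 fold changes against DMSO were 1.36 in Met (limma-trend adjusted p = 7.1e-06), 1.25 in FK (0.000561) and 2.16 in Met+FK (5.59e-08), with an SE of 0.16 each. Relative to Met, BMP2 was 0.80 higher in Met+FK on the log2 scale (limma-trend adjusted p = 0.0689, and 0.0177 with the replicate block). DESeq2 without the block called it (adjusted p = 0.00286), among 19 genes called in that comparison, and edgeR did not. With the block and the GC and length trend removed it stood at 0.77 (limma-trend adjusted p = 0.0323).

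BMP6, another BMP ligand, had means of 811 in DMSO and 1655 in Met (log2 fold change 1.02, SE 0.10, limma-trend adjusted p = 2.32e-06), and 787 in FK (log2 fold change -0.05, limma-trend adjusted p = 0.761). BMP5 went the other way, from 270 in DMSO to 150 in Met (log2 fold change -0.82, SE 0.19, limma-trend adjusted p = 0.00252). BMP2 and BMP6 thus rose in the same Met libraries in which the BMP targets ID3 and SMAD6 fell. The other DEGs among these ligands, BMP4, BMP8A and GDF5, had means under 50 normalized counts. BMP8A in Met kept its call in 2 of 6 fits with 1 library left out (limma-trend adjusted p up to 0.242) and lost it with edgeR (0.0844) and DESeq2 (0.0991). BMP4 in FK kept it in 3 of 6, with adjusted p-values up to 0.0622, so without DMSO replicate 1, DMSO replicate 3 or FK replicate 2 the count in FK was 1. DESeq2 gave no adjusted p for BMP4 in FK.

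**Figure D5:**
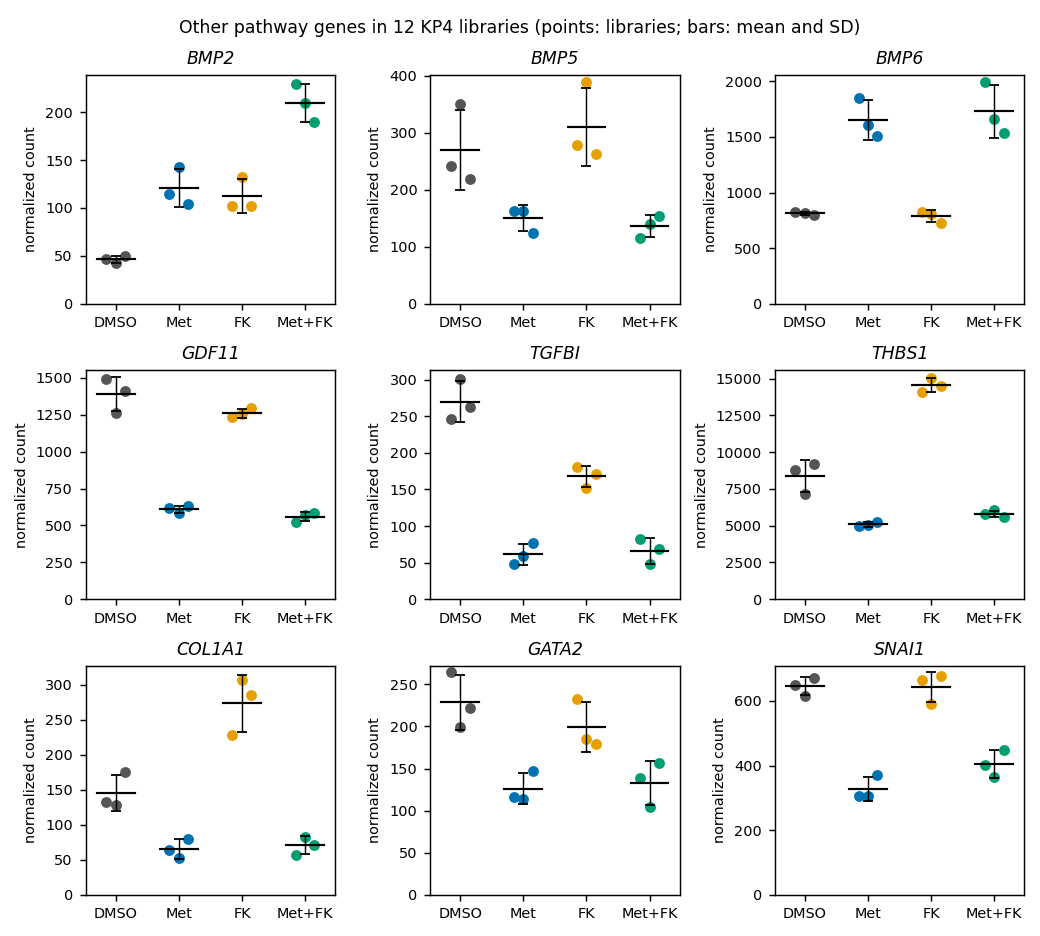
Normalized counts (y axis, from 0) of 9 other pathway genes in DMSO, Met, FK and Met+FK (x axis). Points are the 3 libraries of each treatment, the long bar is their mean and the error bar the SD. BMP2 was highest in Met+FK, while THBS1 and COL1A1 were highest in FK and lowest in Met.

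Of 10 receptor genes tested, 3 were higher and 1 lower in Met against DMSO, and 0 were DEGs in FK against DMSO. By the adjusted p alone 3 passed in FK, where 11.3% of all genes were higher and 9.84% lower. The median of the list was 0.40 in Met and 0.24 in FK, beside 0.01 and -0.02 over all genes. BMPR2, the type II receptor for BMPs, had means of 1810.3 in DMSO and 2783 in Met (log2 fold change 0.62, SE 0.12, limma-trend adjusted p = 0.000526). ACVR2B, a type II receptor for activins, was also higher (log2 fold change 0.72, SE 0.13, limma-trend adjusted p = 0.000298). The other higher receptor was BMPR1B (log2 fold change 0.73). With the GC and length trend removed, BMPR2 stood at 0.26, ACVR2B at 0.46 and BMPR1B at 0.44 (limma-trend adjusted p = 0.149 for BMPR1B), and none of them was a DEG. Without DMSO replicate 1, BMPR2 stood at 0.58, just short of the fold threshold. TGFBR2, the type II receptor for TGF-beta, had 8838 normalized counts in DMSO and 10383 in Met (log2 fold change 0.23, limma-trend adjusted p = 0.00999). ACVR1, a type I receptor for BMPs and activins, was a higher DEG in Met+FK against DMSO (log2 fold change 0.73, SE 0.09, limma-trend adjusted p = 7.86e-06).

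The SMADs that carry the signal gave 0 DEGs of 6 in every comparison between treatments. SMAD2 had log2 fold changes of 0.41 in Met (limma-trend adjusted p = 0.00568) and 0.35 in FK (0.0408), and SMAD3 -0.32 in Met (0.00902). SMAD1, SMAD5 and SMAD9 did not pass the p threshold in Met, and SMAD5 was at 0.44 in FK (limma-trend adjusted p = 0.0241). SMAD4 held between 17 and 44 read pairs per library, and TGFBR1, a type I receptor for TGF-beta, 1 read pair over all 12.

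All 12 genes of inhibitors inside the cell and at the receptor could be tested. In Met against DMSO 2 were higher, and SMAD6 was the only lower DEG. The higher ones were SKIL, a SMAD corepressor (log2 fold change 0.82, SE 0.17, limma-trend adjusted p = 0.00125), and TGIF1, another corepressor (log2 fold change 0.66, SE 0.09, limma-trend adjusted p = 2.75e-05). With both drugs TGIF1 had a mean of 3884, beside 3059 in Met and 2366 in FK. With the GC and length trend removed SKIL stood at 0.43 and TGIF1 at 0.53 in Met, below the fold threshold, and TGIF1 stood at 0.58 without Met replicate 1. Of 12 secreted antagonists and latency proteins tested, 1 was a DEG in Met against DMSO (INHA, mean under 50) and 0 in FK, where the median was -0.20. The call of INHA was kept in 2 of 6 fits with 1 library left out (limma-trend adjusted p up to 0.124, without DMSO replicate 3) and lost with DESeq2 (0.0735).

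Of 17 TGF-beta target genes tested, 1 was higher and 4 lower in Met against DMSO, with a median of 0.08. The higher one was SKIL, which is also counted among the inhibitors. TGFBI, an extracellular matrix protein named for its induction by TGF-beta, had 247, 301 and 263 normalized counts in DMSO and 48.1, 58.6 and 77.1 in Met. The groups were far apart (log2 fold change -2.14, SE 0.20, limma-trend adjusted p = 8.37e-07). It was also lower in FK, at 180, 152 and 171 (log2 fold change -0.68, SE 0.20, limma-trend adjusted p = 0.0328), a call that was lost with the GC and length trend removed (-0.54, limma-trend adjusted p = 0.0979). The call in FK was kept only without FK replicate 1, with adjusted p-values up to 0.128 (without FK replicate 2) in the other 5 of 6 fits. SNAI1, a repressor of epithelial genes, was lower in Met as well (log2 fold change -0.98, SE 0.11, limma-trend adjusted p = 4.5e-06). CCN2, a classical TGF-beta target, was not a DEG in any of the 5 comparisons, with a log2 fold change in Met of 0.08 (limma-trend adjusted p = 0.556).

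THBS1 and COL1A1 were lower in Met and higher in FK, and both were lower in Met+FK against FK. THBS1, a matrix protein that can activate latent TGF-beta, had means of 8385 in DMSO, 5088 in Met, 14553 in FK and 5793 in Met+FK. The log2 fold change was -0.71 in Met (limma-trend adjusted p = 9.79e-06), 0.80 in FK (0.000134) and -1.33 in Met+FK against FK (2.24e-08), with an SE of 0.08 each. COL1A1, a chain of type I collagen, had means of 145, 65.3, 274 and 70.6 in the same order. Its log2 fold changes were -1.15 in Met (limma-trend adjusted p = 0.000181), 0.91 in FK (0.0153) and -1.94 in Met+FK against FK (1.61e-06), with an SE of 0.19 each. The call in FK was lost without DMSO replicate 1 (0.86, limma-trend adjusted p = 0.0814) or FK replicate 2 (0.82, adjusted p = 0.0593). Like INHBA, both stood highest in FK, and their interactions, -0.62 for THBS1 (limma-trend adjusted p = 0.0803) and -0.79 for COL1A1 (0.111), missed the threshold. With the replicate number as a block both passed, THBS1 with an adjusted p of 0.00455 and COL1A1 with 0.02, where 16.5% of all genes passed in the lower direction. Removing the GC and length trend as well put them at -0.47 (limma-trend adjusted p = 0.019) and -1.04 (0.0386). DESeq2 without the block called THBS1 (adjusted p = 0.00223).

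Of 12 BMP target genes tested, members included, 1 was higher and 4 lower in Met against DMSO, with a median of -0.24, and 0 were DEGs in FK. SMAD6 and ID3 were joined by GATA2, a transcription factor, with 264, 199 and 222 normalized counts in DMSO and 116, 114 and 147 in Met (log2 fold change -0.86, SE 0.17, limma-trend adjusted p = 0.000742). The other lower gene was ATOH8 (means 62.3 and 16.5), and the higher one HEY1 (30.2 and 60.4). Both had means under 50 over the 12 libraries and are named because the count is small, after their values were seen. Among the bHLH partners of the ID proteins, TCF12 was higher in Met (log2 fold change 0.70, SE 0.13, limma-trend adjusted p = 0.000487, and 0.44 with the GC and length trend removed). TCF3, the E2A gene, was not a DEG (-0.42, limma-trend adjusted p = 0.00034).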

How the data were processed

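According to the study's methods and the processing notes in the labels, the authors used cutadapt for trimming, STAR for alignment to hg38, featureCounts for counting read pairs on genes, and DESeq2 for normalization. The deposited values are a signal, counts divided by a size factor per library. The annotation and strand setting are not given in the sources used here. Division by each library's smallest step gave whole read pairs for 100% of values within 0.01. Positions are those of the deposited table.

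limma-trend (limma 3.58.1, R 4.3.3) was fitted to log2(normalized count + 1) of all 12 libraries, 1 mean per treatment, for the 15376 genes whose mean reached 10, with Benjamini-Hochberg adjustment per comparison. Fold changes are on that scale, which understates those of low genes. Per-kilobase levels used the union of GENCODE 44 exons. In simulated counts 166 of 200 genes changed 2-fold were recovered among 15376, with 4 false calls. The simulated libraries held no shared replicate effect and no GC or length trend, so these numbers apply to such data only. Nothing states that libraries came from separate cultures, so p-values measure the spread between libraries, which may be technical.

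The alternatives were pseudocounts of 0.1 and 10, no filter, a filter on every library, scaling to the same total, TMM, a fit of only the 6 libraries compared, a block for the replicate number, removal per library of a loess trend (span 0.3) on GC content and log length of the canonical transcript, with and without the block, edgeR 4.0.16, DESeq2 1.42.0, the adjusted p alone, and each library left out. Deviations of same-numbered libraries correlated at 0.25, 0.42 and 0.22 for DMSO and FK and at 0.17, 0.20 and 0.23 for Met and Met+FK, all above 0.1, which made these pairs by the values, with no label behind it. The other pairs of groups compared had at least 1 correlation under 0.1, and Met with FK was not among them. All their correlations were positive, and those of DMSO and Met were 0.0129, 0.328 and 0.248. The limit of 0.1 thus does not separate the pairs sharply.

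The members and lists were chosen with earlier results of these data known. All 9 members are named. Other list genes are named where DEG in any of the 5 comparisons, at most 4 per list and comparison by log2 fold change among those with a mean of at least 50, while receptors and SMADs may be named in any case. Targets such as CCN2 and TCF3 outside this rule were named after their values were seen. A list gene that is counted may not be reported by name here.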

Additional observations from a re-analysis of the deposited data

Results flagged for a closer look

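For 3 members the interaction, the difference in the effect of FK866 with and without metformin, passed the threshold of limma-trend once a replicate block was included, and not in the same test of all libraries without it. The block fitted 1 effect per replicate number for all treatments. By a limit of 0.1 on every correlation of same-numbered libraries, the numbers paired DMSO with FK and Met with Met+FK. The other pairs of groups compared were also positively correlated. DMSO with Met fell short in replicate 1 alone (0.0129, 0.328 and 0.248). The block p-values of the interaction thus rest on a wider pairing than that limit gave. Without the block DESeq2 called INHBA (adjusted p = 0.00193), among 777 genes called. limma-trend called INHBA and ID3 when FK replicate 1 was left out (adjusted p = 0.0366 and 0.0442), where 980 genes were higher and 865 lower. INHBA had an interaction of -1.31 on the log2 scale (limma-trend adjusted p = 0.00221 with the block and 0.085 without). It stayed past the threshold with the GC and length trend also removed (-0.91, adjusted p = 0.034). ID3 had an interaction of 0.57 (limma-trend adjusted p = 0.0184 with the block and 0.11 without), and 0.33 (adjusted p = 0.127) with the trend also removed. TGFB1 had an interaction of 0.29 (limma-trend adjusted p = 0.0359 with the block and 0.216 without), and -0.01 (adjusted p = 0.953) with the trend also removed. Over all genes the block moved the number of genes past the threshold of the interaction from 9 to 4914, and to 485 with the trend also removed, so 3 of 9 members stand beside a large share of all genes. The part of GC content in these differences was not tested beyond that fit.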

How the results depend on the processing

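The calls of SMAD6 and ID3 in Met and in Met+FK against DMSO, of INHBA in FK against DMSO, and of INHBA and SMAD6 in Met+FK against FK held under every alternative run. With the adjusted p alone, 4 members were lower in Met, 1 lower in FK, and 1 higher and 5 lower in Met+FK against DMSO. In the interaction the replicate block gave 2 higher and 1 lower, the block with the GC and length trend removed 1 lower, and DESeq2 1 lower. Leaving out 1 library gave 0 to 1 higher and 0 to 1 lower there, both 1 without FK replicate 1 (INHBA -1.49, limma-trend adjusted p = 0.0366, and ID3 0.67, adjusted p = 0.0442, where 980 genes were higher and 865 lower, beside 0 to 9 calls in the other fits), and 2 to 4 lower members in Met+FK against FK. Over all genes the interaction had 9 calls, 10 with edgeR, 777 with DESeq2, 43 with the trend removed and 4914 with the block. Met+FK against Met had 9 in the main test, 19 with DESeq2 and 25 with the block. FK against DMSO had 536 calls, 195 with the trend removed, 112 with only the 6 libraries compared, and 94 to 1202 when a library was left out. Apart from the interaction and BMP2 in Met+FK against Met, the block changed no DEG call of a named gene in the paired groups, while by the adjusted p alone it raised the lower members in FK from 1 to 4. Scaling to the same total moved the median of all genes in Met against DMSO to 0.13, with 2835 higher and 1025 lower calls where the main test had 1964 and 1566. Under it TGFB2 (0.0588) and INHBA (0.059) in Met against DMSO and TGFB1 in Met+FK against Met (-0.00851) changed sign. With the GC and length trend removed, with or without the block, signs changed for TGFB2 in FK (-0.12), TGFB1 in Met+FK against Met (-0.0282), and the interactions of TGFB1 (-0.00789), SMAD7 (-0.11) and ID1 (-0.14). None of these values passed the test. Leaving out 1 library changed the sign of values near 0, over ranges of -0.17 to 0.0226 (TGFB2) and -0.24 to 0.10 (INHBA) in Met against DMSO, -0.24 to 0.28 (BAMBI) in Met+FK against FK, and -0.0556 to 0.12 (TGFB1), -0.32 to 0.029 (INHBA), -0.10 to 0.41 (BAMBI) and -0.18 to 0.0242 (SMAD6) in Met+FK against Met. The cause of these changes was not tested. Over all alternatives other than leaving out a library, 649 values of members kept direction and side of the threshold, 16 came past it, 6 fell short of it and 13, those named above, changed sign. BAMBI, with 237 read pairs in all, had the largest SE of the members (0.29).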

Other observations

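Some genes of the pathway and their neighbours on the chromosome had few or no reads. TGFBR1 held 1 read pair over the 12 libraries, and its neighbours ANKS6, GALNT12 and COL15A1 on the same side on chromosome 9 held 0. On its other side ALG2 held 18638 and SEC61B 32211. CDKN2B, a TGF-beta target, held 0, as did CDKN2A and MTAP beside it on chromosome 9. SMAD4 held 389 read pairs, between 17 and 44 per library. MEX3C next to it held 0, while ME2 held 65988 and ELAC1 4327. These genes were chosen after the low values were seen. A count of 0 limits reads at this depth and does not say whether the genes are present.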
